A study of Rattus norvegicus with 10 samples.

Results

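The 9 genes described here are the inhibitor of DNA binding genes Id1, Id2, Id3 and Id4, the CCN genes Ccn1 and Ccn2, Smad7, Ankrd1 and Tgfb1, which are read as outputs or regulators of the TGF-beta, BMP and YAP pathways. They were given by name, and their probes were found through the transcript accession of every probe that was no control. Each gene had 1 probe, so the members were 9 of 30367 probes and 9 of 15154 genes with a probe. All 9 probes were well above background in both channels of all 10 arrays. The choice of genes also named a pattern, Id2 higher and Ccn2 lower on all 10 arrays, so these directions are a description here.

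PCCl3 is a rat cell line of the thyroid follicle that keeps thyroid functions in culture. The cells received a pool of siRNAs against FoxE1 (siFoxE1) or a non-targeting pool (siScramble), each at 25 nM, or were left untreated (wt), and RNA was taken 48 h later. All 3 conditions were grown in medium with 5% donor calf serum and hormones that included 1 nM TSH. Each condition had 4 biological replicates, called cultures 1 to 4 here. Each comparison, siFoxE1 over siScramble and siFoxE1 over wt, had 4 arrays of 1 culture per dye with siFoxE1 in Cy5, and 1 array of pooled replicates with the dyes exchanged. The labels call a pool one of biological replicates without naming which, so no n of cultures given here includes it. Fits that used the pool took it as a further array, as if it were independent of the cultures. In the study's drawing both comparisons use the same siFoxE1 extracts, so neither is independent of the other. Bulk RNA cannot tell less RNA per cell from fewer cells that make it.

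Id proteins are helix-loop-helix proteins without a DNA-binding part. They bind E proteins and keep them from DNA, and Id1, Id2 and Id3 are classical early targets of BMP signalling through SMAD proteins. CCN1 and CCN2 are secreted matricellular proteins whose genes, with Ankrd1, are widely used readouts of YAP and TAZ acting through TEAD factors, and Ccn2 is also a TGF-beta target. SMAD7 is induced by TGF-beta and BMP signals and inhibits their receptors, and Tgfb1 encodes the TGF-beta1 ligand. FoxE1 is a forkhead transcription factor of thyroid cells.

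The stretch before the start of Ccn2, Ccn1 and Id2 is shown because Ccn2 and Id2 are the members with one sign on all arrays, in opposite directions, and Ccn1 is the paralog that differs from Ccn2. RefSeq promoter windows (GRCr8) were at hand for 8 of the 9 genes, and Ankrd1 had no entry. The 250 bases before the annotated start were searched on both strands for GGAATG, the core of TEAD elements, for CAGAC, a SMAD element, for GGCGCC, a GC-rich element of BMP SMADs, for the CArG box of SRF, and for TTGG followed after 5 to 30 bases by AAACA, which stands for a pair of NF1 and FoxE1 elements. Capitals mark the matches. The Ccn2 stretch lies on the minus strand at chr1:22624615-22624864, that of Ccn1 on the minus strand at chr2:237225690-237225939 and that of Id2 on the minus strand at chr6:47470996-47471245.
Ccn2: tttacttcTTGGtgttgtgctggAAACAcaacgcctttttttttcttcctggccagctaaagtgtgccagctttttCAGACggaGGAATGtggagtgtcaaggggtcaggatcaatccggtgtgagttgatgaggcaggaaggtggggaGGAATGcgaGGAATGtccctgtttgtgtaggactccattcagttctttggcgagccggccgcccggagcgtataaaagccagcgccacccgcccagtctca
Ccn1: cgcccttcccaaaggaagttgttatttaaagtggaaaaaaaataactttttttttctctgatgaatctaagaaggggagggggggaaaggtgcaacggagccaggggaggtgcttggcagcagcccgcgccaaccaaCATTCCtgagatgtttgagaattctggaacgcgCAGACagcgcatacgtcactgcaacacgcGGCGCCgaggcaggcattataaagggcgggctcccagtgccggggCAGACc
Id2: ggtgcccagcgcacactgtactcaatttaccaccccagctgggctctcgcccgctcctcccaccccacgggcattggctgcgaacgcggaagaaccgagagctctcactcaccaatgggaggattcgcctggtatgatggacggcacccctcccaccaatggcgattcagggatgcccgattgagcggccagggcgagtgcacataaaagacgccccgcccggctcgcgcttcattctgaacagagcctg
The Ccn2 stretch held 3 GGAATG matches, which began at bases -166, -101 and -92 from the start, and 3 or more matches occurred in 0.0807% of 33469 windows of the same length. It also held TTGG and AAACA at a spacing of 11 bases, from base -242 to -223, a pair found in either orientation in 6.36% of all windows. The study's own motif search lists the same pair for this gene. One CAGAC began at base -174 of Ccn2, a motif that 42.9% of windows hold. Ccn1 held 1 CATTCC, the reverse complement of GGAATG, which 12.1% of windows contain in either orientation, 2 CAGAC and 1 GGCGCC. Smad7 held 2 GGCGCC matches, present in 8.69% of windows, and Id3 held 1 CATTCC. The windows of Id1, Id2, Id4 and Tgfb1 held no match to any of the searched motifs, and none of the 8 windows held a CArG box, which 1.497% of all windows did. None of the matches in the printed stretches overlapped another. These letter matches describe the windows and are not binding sites.

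**Figure D1:**
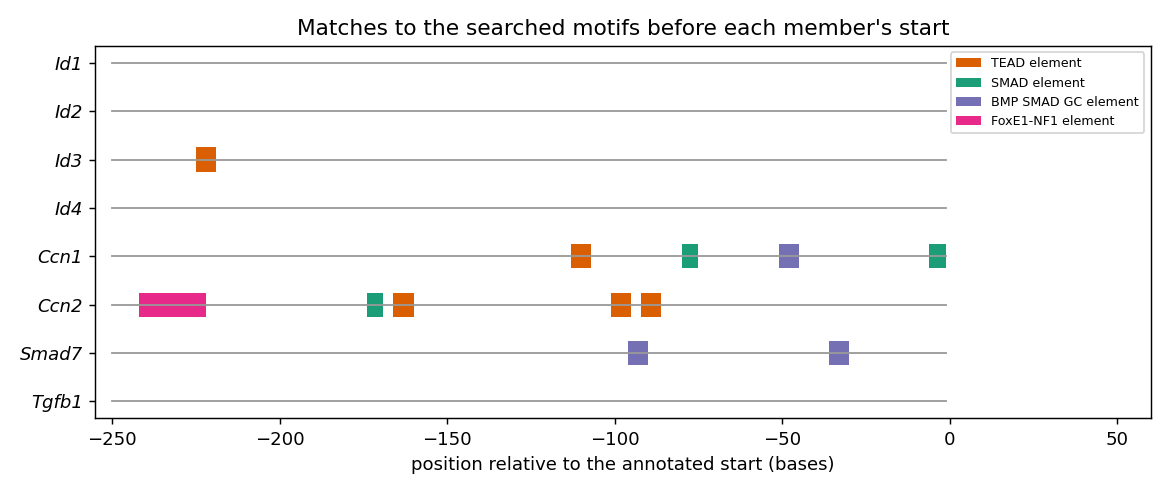
Matches to the searched motifs in the 250 bases before the annotated start of 8 members, with position relative to the start in bases on the x axis and 1 line per gene. Ccn2 carries 3 TEAD matches, 1 SMAD match and the FoxE1-NF1 pair (drawn from its first to its last base), while the lines of Id1, Id2, Id4 and Tgfb1 are empty.

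The targeted gene was lower in siFoxE1 cells on all 10 arrays, as the labels require. Foxe1 had a log2 fold change of -0.80 (SE 0.0859, limma adjusted p = 0.0228) against siScramble and -0.86 (SE 0.0773, limma adjusted p = 0.0333) against wt. In single cultures its ratio ran from -0.77 to -0.39 against siScramble and from -0.62 to -0.34 against wt. The pools, at -1.03 and -1.21, were below every culture. Each pool weighs as much in the fit as the 4 single arrays together, so no single culture reached the fitted values. Log2 ratios of all tested probes had a standard deviation (SD) between 0.174 and 0.453 per array, the highest for culture 3 against wt, and no spot was saturated. All 8 thyroid follicular markers were tested, while of the markers of other cell types 3 of 8 fibroblast, 2 of 5 C cell, at most 2 of 5 endothelial and at most 2 of 5 macrophage genes were bright enough to be tested, and none of these passed the test.

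Id2 and Ccn2 were the members whose ratio had one sign on all 10 arrays, Id2 above 0 and Ccn2 below 0. Such a pattern was seen for 2 of the 9 members and for 1734 of 17774 probes measured on all arrays (9.76%), and since it was named when the genes were chosen nothing is read from this count. In the test fitted to each comparison, no member passed an adjusted p of 0.05. Of all probes tested, 22 of 18139 passed against siScramble (0.121%) and 9 of 18526 against wt (0.0486%). At an unadjusted p under 0.05 in limma, 5 members were found against siScramble (Id1, Id2, Id4, Ccn1 and Ccn2) and 4 against wt (Id1, Id2, Id4 and Ccn2), where 2381 and 3179 of all probes were. The median log2 fold change of the 9 members was 0.19 against siScramble and 0.16 against wt, and that of all genes tested was 0.00 in both. Above 0 lay 8 of 9 members against siScramble and 6 of 9 against wt, compared with 50.3% and 49.4% of all genes. The members were chosen with earlier results of these data known, so nothing is read from these counts either.

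The culture numbers pair the arrays, because in the study's drawing both arrays of a number take their siFoxE1 RNA from 1 extract. With the number as a block in 1 fit of all 10 arrays, 4 of 9 members passed against wt, namely Id1, Id2 and Id4 as higher and Ccn2 as lower in siFoxE1 cells. In that fit 8.17% of 17804 probes passed against wt. Against siScramble 0 of 9 members passed with the block in limma, where 0.359% of probes did. At an unadjusted p under 0.05 in that limma fit there were 4 of 9 members, beside 2269 of 17804 probes. The blocked value of each of the 4 genes is given beside it. The calls changed with the fit in other ways too. In 1 fit of all 10 arrays without the block, 3 members passed against wt (Id2, Id4 and Ccn2), as did 9.32% of all probes. Without the dye term, 3 members passed against siScramble (Id1, Id2 and Ccn2), where 3.8% of probes did, and 2 against wt (Id2 and Ccn2), where 4.56% did. From the 4 individual arrays alone, 2 passed against siScramble (Id2 and Ccn2), where 2.91% of probes did. The ratios of Id2 and Ccn2 were named when the genes were chosen. Nothing is therefore read from their calls, in any of these fits, beside the shares of all probes.

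**Figure D2:**
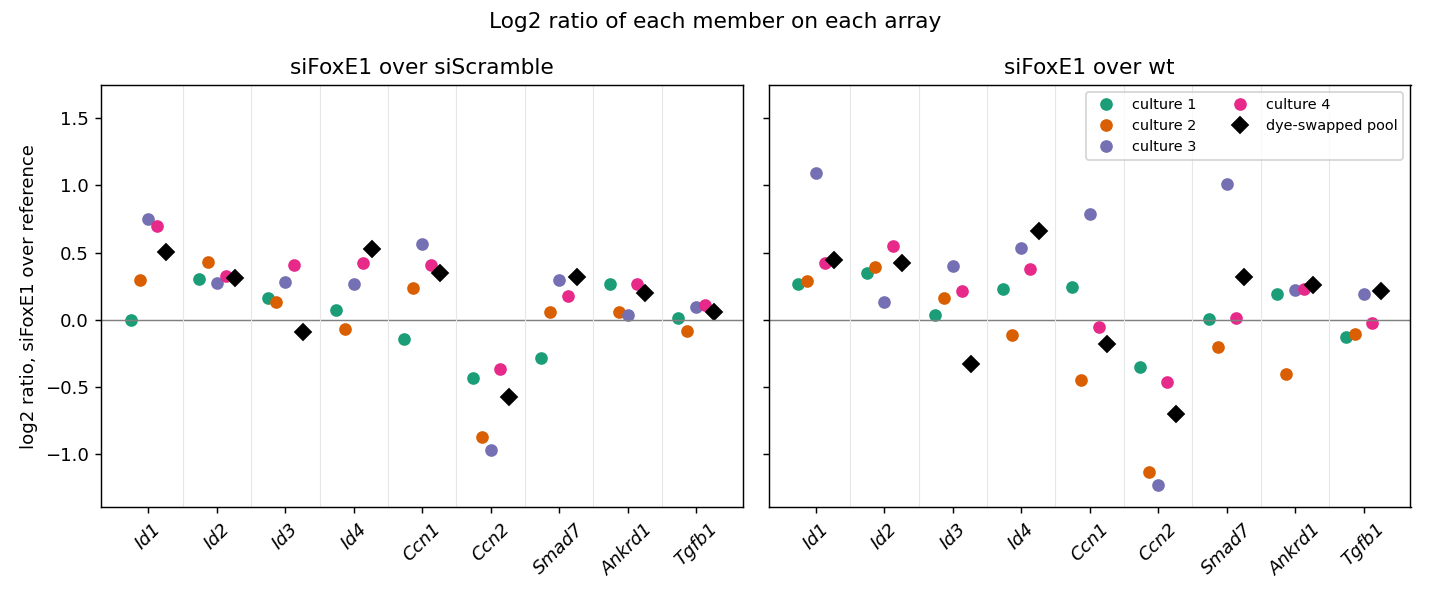
Log2 ratio of siFoxE1 over the reference (y axis) for the 9 members (x axis) on each array, with siScramble as reference on the left and wt on the right. Circles are single cultures and the black diamond is the dye-swapped pool. Id2 lies above 0 and Ccn2 below 0 on all 10 arrays, and the pool of Id3 lies below 0 while its 4 cultures lie above it.

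Id2, whose protein sequesters E proteins and is studied as a brake on differentiation in many tissues, was higher in siFoxE1 cells than in either reference in every culture. Against siScramble its log2 ratio was 0.30, 0.43, 0.27 and 0.33 in cultures 1 to 4 and 0.31 in the pool. Against wt it was 0.35, 0.39, 0.13 and 0.55, and 0.42 in the pool. Culture 3 had the lowest ratio in both comparisons, and the cultures differed less against siScramble (SD 0.0694, n = 4) than against wt (SD 0.173, n = 4). The fitted difference was 0.32 on the log2 scale (1.25-fold, SE 0.0668, limma adjusted p = 0.183) against siScramble. The difference from wt was 0.39 (1.31-fold, SE 0.0911, limma adjusted p = 0.234), and 0.37 with the replicate block (limma adjusted p = 0.0197).

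The level of Id2 itself, as log2 normalized intensity of its probe, varied between cultures by as much as siFoxE1 and its reference differed. On the arrays against wt it was 9.52, 9.56, 9.28 and 9.17 in siFoxE1 cultures 1 to 4. In wt cultures it was 9.17, 9.17, 9.15 and 8.63. The siFoxE1 and wt levels met at 9.17, since wt culture 1 was as high as siFoxE1 culture 4. Against siScramble the siFoxE1 levels of 9.09 to 9.59 overlapped the reference levels of 8.77 to 9.23, and culture 4 was lowest in all 3 conditions. So each culture was higher than its own partner, while the groups taken as a whole overlapped.

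Id1, the Id gene most often used as a readout of BMP signalling, had the largest mean difference of the 4 Id genes and the most uneven one. Its log2 ratio against siScramble was -0.0045, 0.30, 0.75 and 0.70 in cultures 1 to 4 and 0.50 in the pool. The ratios over wt were 0.26, 0.29, 1.09 and 0.42, and 0.45 in the pool. Culture 1 was level with siScramble, and culture 3 had the highest ratio in both comparisons. The SD over cultures was 0.357 against siScramble and 0.391 against wt (n = 4). The fit gave 0.47 (1.38-fold, SE 0.139, limma adjusted p = 0.255) against siScramble. It gave 0.48 (1.40-fold, SE 0.160, limma adjusted p = 0.246) against wt and 0.50 with the replicate block (limma adjusted p = 0.0493).

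Culture 1 also had the lowest level of Id1 in every condition. On the arrays against wt, the log2 intensity was 10.25 in siFoxE1 culture 1 and 11.69, 11.95 and 11.76 in cultures 2 to 4. Its wt partners were at 9.99, 11.40, 10.85 and 11.34. The spread between cultures of one condition, 1.69 for siFoxE1 and 1.41 for wt, was larger than the ratio between conditions in any culture. The same siFoxE1 extracts gave Id1 levels that differed by at most 0.0651 between their arrays.

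Id4, the Id gene best known from the nervous system and mammary epithelium, had ratios on either side of 0. Against siScramble they were 0.07, -0.07, 0.26 and 0.42 in cultures 1 to 4, with 0.52 in the pool. Against wt they were 0.23, -0.12, 0.54 and 0.38, with 0.66 in the pool. Culture 2 was below 0 in both comparisons, and the pool was above every single culture in both. The fit, in which the pool weighs as much as the 4 single arrays together, gave 0.35 (1.27-fold, SE 0.0974, limma adjusted p = 0.237) against siScramble. It gave 0.46 (1.37-fold, SE 0.123, limma adjusted p = 0.234) against wt and 0.45 with the replicate block (limma adjusted p = 0.0233). From the 4 single arrays alone the values were lower, at 0.17 and 0.26.

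Id3, which in other cells follows Id1 closely, had a log2 intensity between 6.47 and 7.25 in siFoxE1 cells on all arrays. Its ratio against siScramble was 0.16, 0.13, 0.28 and 0.41 in cultures 1 to 4 and -0.09 in the pool. Against wt it was 0.03, 0.16, 0.40 and 0.21, and -0.33 in the pool. All 8 single arrays were above 0 and both pools, where siFoxE1 carried the other dye, were below 0. The fit therefore gave 0.08 (SE 0.0760, limma adjusted p = 0.741) against siScramble and -0.07 (SE 0.0858, limma adjusted p = 0.713) against wt. Levels of the same siFoxE1 extract differed by up to 0.45 between its arrays, the most of the 9 members, so Id3 was the least repeatable measurement here.

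**Figure D3:**
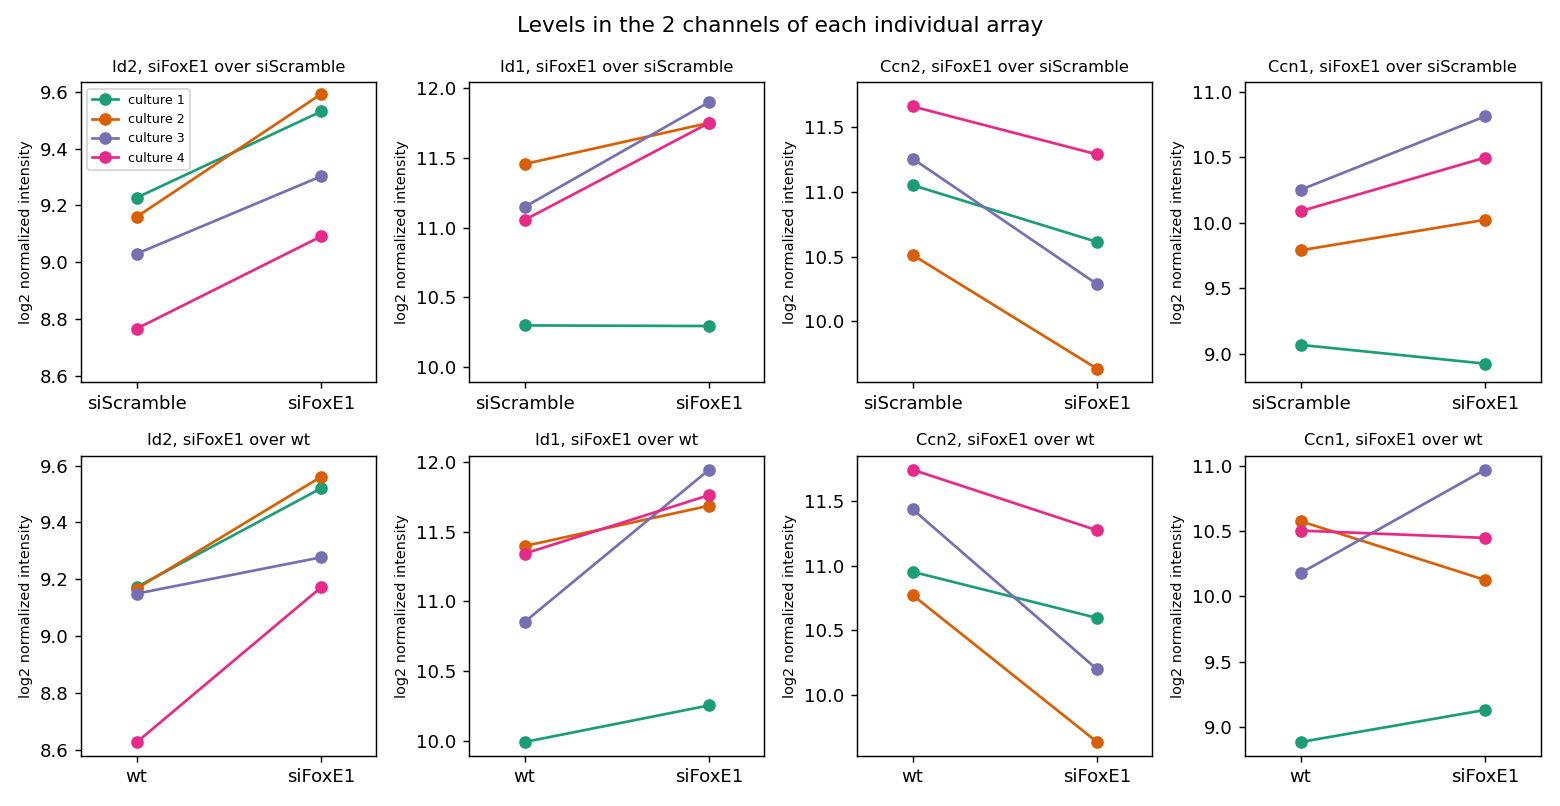
Log2 normalized intensity (y axis) of Id2, Id1, Ccn2 and Ccn1 in the reference channel and the siFoxE1 channel of each single array, 1 line per culture, with siScramble above and wt below. Every Id2 line goes up and every Ccn2 line goes down, while culture 1 starts and ends lowest for Id1 and Ccn1.

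Ccn2, the gene of connective tissue growth factor, was lower in siFoxE1 cells in every culture. The study lists this gene, as Ctgf, among those called lower in both of its comparisons. The fit of each comparison here did not reach that call. Against siScramble its log2 ratio was -0.44, -0.88, -0.97 and -0.37 in cultures 1 to 4 and -0.57 in the pool. With wt as reference the values were -0.36, -1.14, -1.24 and -0.47, and -0.70 in the pool. Cultures 2 and 3 had the larger differences in both comparisons and cultures 1 and 4 the smaller ones. The SD over cultures was 0.304 against siScramble and 0.451 against wt (n = 4). The fitted difference was -0.62 against siScramble, which is 1.54-fold lower (SE 0.123, limma adjusted p = 0.168). The difference from wt was -0.75, which is 1.68-fold lower (SE 0.181, limma adjusted p = 0.234), and it was -0.75 with the replicate block as well (limma adjusted p = 0.0114).

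The level of Ccn2 differed widely between cultures in each condition. On the arrays against wt the log2 intensity was 10.60, 9.64, 10.20 and 11.27 in siFoxE1 cultures 1 to 4. In wt cultures it was 10.95, 10.77, 11.44 and 11.74. Culture 4 was highest in both and culture 2 lowest in both, and siFoxE1 culture 4 was above wt cultures 1 and 2, so the groups overlapped. In siScramble cultures the log2 intensity was 11.05, 10.51, 11.26 and 11.66, the same order of cultures as in wt. The Ccn2 probe was printed 10 times per array and its spots differed by a median SD of 0.0569 in log2 ratio against siScramble, well below the spread between cultures.

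Ccn1, the gene of CYR61 and with Ccn2 the usual pair of YAP readouts, did not show the direction of Ccn2. Its log2 ratio against siScramble was -0.14, 0.23, 0.56 and 0.41 in cultures 1 to 4 and 0.34 in the pool. Against wt it was 0.25, -0.45, 0.79 and -0.06, and -0.18 in the pool. Culture 3 was the one culture above 0 in both comparisons. The fit gave 0.30 (SE 0.123, limma adjusted p = 0.351) against siScramble and -0.02 (SE 0.207, limma adjusted p = 0.964) against wt. Its probe had 1 spot per array. The log2 intensity of Ccn1 in siFoxE1 cultures ran from 9.13 to 10.97 on the arrays against wt, lowest in culture 1 and highest in culture 3.

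Ankrd1, which encodes a muscle ankyrin repeat protein and is another common YAP target, was above 0 on 9 of 10 arrays by small amounts. Against siScramble the log2 ratio was 0.27, 0.06, 0.03 and 0.27 in cultures 1 to 4 and 0.20 in the pool. With wt as reference the values were 0.19, -0.41, 0.22 and 0.23, and 0.26 in the pool. Culture 2 against wt stood apart from the other cultures. The fit gave 0.18 (SE 0.0768, limma adjusted p = 0.381) and 0.16 (SE 0.134, limma adjusted p = 0.561) against siScramble and wt, the latter being 0.058 in the 4 individual arrays alone. So of the 3 YAP readouts among the members, Ccn2 was lower on all arrays, Ankrd1 was higher on 9 of 10 and Ccn1 on 6 of 10, none passing the test fitted to each comparison.

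Smad7, an inhibitory SMAD, differed in direction between cultures. Its log2 ratio against siScramble was -0.29, 0.06, 0.30 and 0.17 in cultures 1 to 4 and 0.32 in the pool. The ratios over wt were 0.01, -0.20, 1.01 and 0.02, and 0.32 in the pool. Culture 3 against wt was the only array on which Smad7 differed by more than 0.32 in size. This array also had the widest spread of all probes (SD 0.453) and the highest ratios of Id1 and Ccn1, and the part of that spread in these values was not tested. The fit gave 0.19 (SE 0.107, limma adjusted p = 0.505) against siScramble and 0.26 (SE 0.214, limma adjusted p = 0.546) against wt. The first was 0.060 in the 4 individual arrays alone, and the second was 0.13 without culture 3.

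Tgfb1, the ligand, was close to 0 throughout. The log2 ratio was 0.01, -0.08, 0.10 and 0.11 in cultures 1 to 4 against siScramble and 0.06 in the pool. Against wt it was -0.13, -0.10, 0.19 and -0.03, and 0.21 in the pool. The fitted differences were 0.05 (95% interval -0.12 to 0.21, limma adjusted p = 0.848) and 0.10 (95% interval -0.10 to 0.30, limma adjusted p = 0.568). Differences of Tgfb1 within these intervals cannot be told from 0 here.

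**Figure D4:**
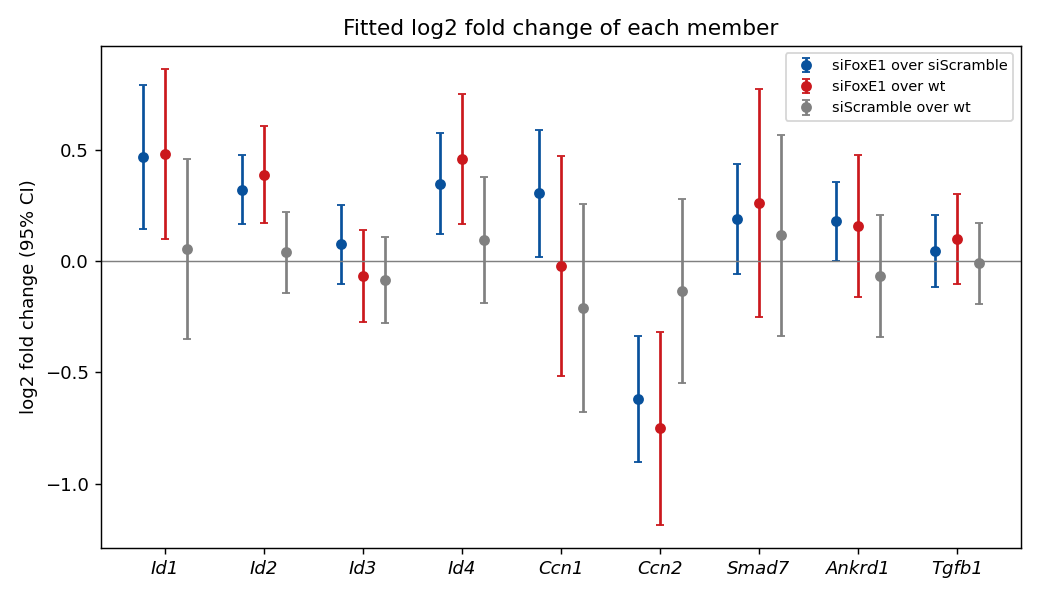
Fitted log2 fold change (y axis) of each member (x axis) with its 95% confidence interval, for siFoxE1 over siScramble, siFoxE1 over wt and siScramble over wt. The intervals of Id1, Id2, Id4 and Ccn2 exclude 0 in both siFoxE1 comparisons before adjustment for all probes tested, and every siScramble over wt interval spans 0.

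Over the 10 arrays, the ratios of some members moved together, which is given as a description because the arrays share siFoxE1 extracts and pools. Id1 and Smad7 had the highest correlation (r = 0.90, n = 10), followed by Id4 and Tgfb1 (r = 0.79) and by Id1 and Ccn1 (r = 0.77). Id1 and Id2 ran in opposite order (r = -0.58), with culture 3 highest for Id1 and lowest for Id2. Id1 and Ccn2 had r = -0.48. Id2 and Ccn1 were the most opposed pair (r = -0.68). So Id2 had its lowest ratios in culture 3, whereas Id1, Ccn1 and Smad7 shared their highest ratios in culture 3.

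siScramble was compared with wt through siFoxE1, as the difference between both comparisons in 1 fit, to see what transfection with a non-targeting siRNA went with. No member passed, and of all probes 0 of 17804 (0%) passed in limma, with 604 at an unadjusted p under 0.05 and 0 of the 9 members among them. With the replicate block 11 probes passed (0.0618%), no member among them. The largest values among the members were -0.21 for Ccn1 (95% interval -0.68 to 0.26) and -0.13 for Ccn2 (95% interval -0.55 to 0.28). For Id2 the difference was 0.04 (95% interval -0.14 to 0.22) and for Id1 it was 0.05 (95% interval -0.35 to 0.46). The interval of each of the 9 members included 0, which does not show that siScramble and wt were alike for any of them.

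The genes whose log2 ratios lay nearest to those of Id2 and Ccn2 over the 10 arrays were looked up among 9569 genes by root mean square difference. For Id2 they were RT1-CE13 (0.111), Irgm (0.120), Mfge8 (0.123), Slc26a4 (0.124) and RT1-CE11 (0.129), while the median over all genes was 0.408. RT1-CE13 and RT1-CE11 are class I MHC genes with near-identical copies whose probes can share targets, Irgm is an interferon-inducible GTPase, Mfge8 a secreted phosphatidylserine-binding protein and Slc26a4 the anion exchanger pendrin of thyrocytes. For Ccn2 they were Atf4 (0.190), Cebpd (0.205), Pycr1 (0.299), Fth1 (0.300) and Pck2 (0.322), with a median over all genes of 0.783. Atf4 is the transcription factor of the integrated stress response, Cebpd another bZIP factor, Pycr1 makes proline, Fth1 is the ferritin heavy chain and Pck2 is mitochondrial PEP carboxykinase. The ratio of Atf4 ran between -1.03 and -0.28 and followed Ccn2 over the 10 arrays (r = 0.96), which share extracts. Atf4 was picked as nearest on these same ratios, so this r is in part fixed by the choice. Between Slc26a4 and Id2 r was 0.03, so a small difference need not mean a shared pattern over arrays.

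Genes of the same pathways were read from lists fixed by name, each gene by its brightest tested probe. The lists were chosen with earlier results of these data known. Nothing is therefore read from how many of their genes lay above 0. Outside the thyroid list, where Foxe1 passed, no gene of these lists passed in either comparison. The genes named are therefore mostly those with the largest mean difference, and all are given as values. Where a second probe of a named gene was tested, it did not always give the same value. The second probe of Tgfb2 had -0.07 against siScramble and 0.07 against wt, that of Tpm1 -0.05 and 0.18, that of Inhbb 0.10 and 0.13, that of Stk3 -0.02 and 0.12 and that of Nf2 -0.07 and -0.00017. For Lats2 the second probe had -0.01 against siScramble and 0.0067 against wt. Of the genes just listed, Tgfb2, Tpm1, Stk3, Nf2 and Lats2 against siScramble, and Nf2 against wt, therefore differed in direction between their probes. With the replicate block against wt some genes passed, always among the 8.17% of probes called there. No list gene outside the thyroid markers passed with the block against siScramble.

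Among the ligands, 7 of 9 TGF-beta, activin and GDF genes were tested against siScramble and 6 against wt. Inhbb, the beta B chain of activin and inhibin, had log2 fold changes of 0.30 against siScramble and 0.31 against wt, Inha, the shared inhibin alpha chain, 0.24 and 0.36, and Tgfb2 0.21 and 0.32. With the block against wt Inhbb (limma adjusted p = 0.0460) and Tgfb2 (limma adjusted p = 0.0424) passed as higher. Of 10 BMP ligands 5 were tested and none passed with or without the block. Bmp7 was at 0.18 and 0.31, Bmp2 at 0.01 and 0.33 and Bmp3 at -0.07 and -0.21. The medians of the 5 were 0.010 and 0.0083. Of the receptors, 9 of 13 were tested against siScramble and 8 against wt, and none passed with or without the block. Their medians were 0.00 and 0.02, and Bmpr1a, a type I BMP receptor, had the largest mean difference at -0.09 and -0.26.

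The 5 tested SMADs that carry the signal lay close to 0, with medians of -0.03 and -0.08 and none passing with or without the block. Among the inhibitors, Smad6, the BMP branch counterpart of Smad7, had 0.52 against siScramble and 0.47 against wt and was above 0 on all 10 arrays (limma adjusted p = 0.223 and 0.273, and 0.0643 with the block against wt). Bambi, a decoy receptor, had 0.17 in both comparisons. Ltbp3, which stores latent TGF-beta, had 0.26 and 0.36 and passed with the block against wt (limma adjusted p = 0.0447). Tested E proteins, the partners of Id proteins, were Tcf3, Tcf4 and Tcf12, and none passed with or without the block, with values between -0.20 and 0.19.

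Of 9 other BMP targets 8 were tested, Smad6 and Bambi of the inhibitors among them. All 8 had log2 fold changes above 0 against siScramble, the lowest at 0.02, and 6 of 8 did against wt. Against siScramble, Gata2 (0.02, SE 0.0668), Hamp (0.05, SE 0.0775) and Hey1 (0.07, SE 0.0707) lay within 1 SE of 0. Of all genes 50.3% and 49.4% were above 0. The medians of these targets were 0.13 and 0.07, beside the 0.00 of all genes. Apart from Smad6, the largest was Atoh8, a helix-loop-helix factor, at 0.43 and 0.60, which passed with the block against wt (limma adjusted p = 0.0310). Of 10 tested TGF-beta targets, 9 were above 0 by their brightest probe in each comparison, with medians of 0.14 and 0.11. The second probe of Col4a1 was below 0 in both comparisons, at -0.18 and -0.24. Against wt the second probes of Cdkn1a (-0.17) and Fn1 (-0.04) were below 0, where the brightest were above it. Those of Cdkn2b and Col1a1 were above 0 in both comparisons. Pmepa1, a membrane protein that restrains TGF-beta signalling, had 0.23 and 0.41, Tgm2, transglutaminase 2, 0.26 and 0.33, and Junb 0.18 and 0.31. Of these, Pmepa1 (limma adjusted p = 0.0126) and Tgm2 (limma adjusted p = 0.0414) passed with the block against wt.

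Of the YAP and TEAD targets other than the members, 14 of 22 were tested against siScramble and 15 against wt, of which 10 and 9 were above 0. Gadd45a, a DNA damage and stress gene, had -0.49 and -0.54, the list's lowest values, and neither passed (limma adjusted p = 0.344 and 0.332). Gadd45b had 0.34 and 0.71, and Tgfb2 is in this list too. With the block against wt Gadd45b (limma adjusted p = 0.0142), Igfbp3 (limma adjusted p = 0.0243), Asap1 (limma adjusted p = 0.0274) and Tgfb2 passed, all as higher in siFoxE1 cells. Over all genes tested, 50.3% and 49.4% were above 0.

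Of the Hippo pathway core 11 of 18 genes were tested, with medians of -0.08 and -0.03. Yap1 itself had no probe with a matching transcript accession, so its RNA was not read here. Wwtr1, which encodes TAZ, had -0.17 against siScramble, the lowest value of the list there, and -0.10 against wt. It was above 0 on 1 of 10 arrays. Tead1, a partner of YAP on DNA, was below 0 on all 10 arrays at -0.16 and -0.12. Lats2, a kinase gene, was above 0 on all 10 arrays at 0.13 and 0.14. One sign on all arrays was seen for 9.76% of all probes. The kinase gene Stk3 had 0.17 and 0.15 and Nf2, which encodes merlin, 0.12 and 0.19. No gene of this list passed with or without the block. Of the targets of MRTF and SRF, the actin-regulated factors that share targets with YAP, 12 of 14 were tested with medians of -0.05 and -0.07. Tpm1 had 0.20 and 0.39, Tagln -0.16 and -0.30 and Srf itself -0.16 and -0.24, and none passed with or without the block. Of the other CCN genes 1 of 4 was bright enough to be tested, Ccn5, at 0.08 and 0.13.

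**Figure D5:**
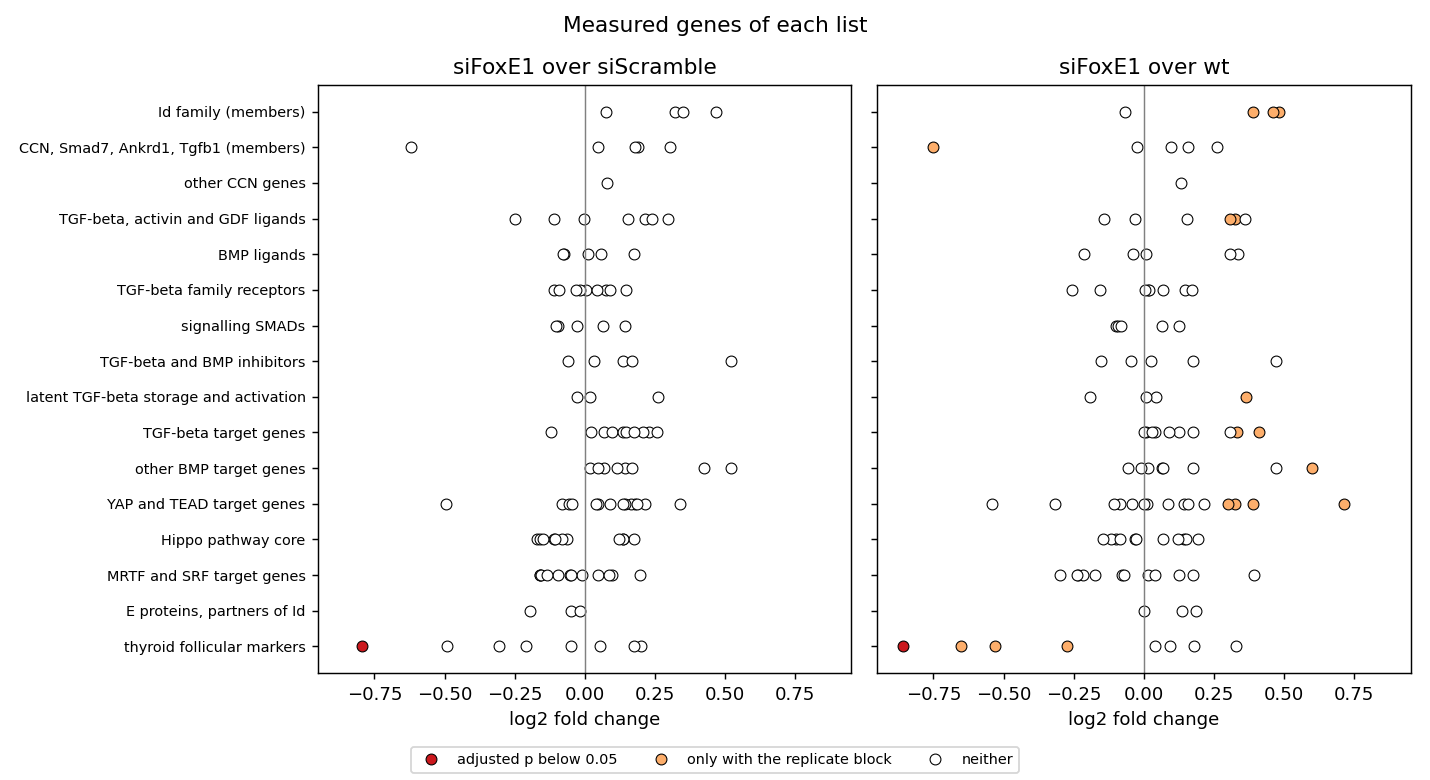
Log2 fold change (x axis) of every tested gene of each list (y axis), siFoxE1 over siScramble on the left and over wt on the right, coloured by whether it passed the test. The red point, Foxe1, is the only gene to pass in the fit of each comparison, and Ccn2 is the lowest point of the second line in both panels. Orange points failed in that fit and passed with the replicate block, whatever the other fits gave.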

How the data were processed

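RNA of PCCl3 cells was measured on 10 Agilent rat arrays with 2 dyes. Scans were quantified by the authors in Feature Extraction 10.7.3.1, and the deposited intensities give median spot and local background brightness per dye beside processed signals. The deposited table of log2 ratios was normalized by the authors with loess and quantiles, the submitters' notes naming limma 3.2.3, and was used as an alternative.

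Here median signals without control spots and outlier flags (1.25 to 1.60% of spots per array) were corrected by normexp (offset 50), normalized by loess and quantiles, averaged per probe and tested in limma 3.58.1 (R 4.3.3), fitting the 5 arrays of a comparison with a term for dye, so that 3 residual degrees of freedom remained. Probes well above background on at least 3 of 5 arrays in one channel were tested, p-values were adjusted by Benjamini-Hochberg over all of them, and the threshold was 0.05. Of 30367 probes, 12369 had no gene symbol through their RefSeq accession. A level is the log2 normalized intensity of one channel and is not compared between probes.

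Dyes were taken from the labels, and the study's drawing shows them the other way round. The siFoxE1 extract of a number served both of its arrays, and deviations of same-numbered arrays correlated at r = 0.616, 0.757, 0.764 and 0.406, while arrays of different numbers ranged from -0.65 to 0.506, the highest being siScramble array 4 with wt array 3, above the value of number 4 itself. With the drawing and every matched value above 0.1, the numbers were also fitted as a block (within-number correlation 0.54). Both pools shared a block of their own there, as if they were another culture, so the blocked p-values rest on that independence. Named genes were all members, Foxe1, up to 3 genes per list with the largest mean difference or passing, and the 5 genes nearest in ratio to Id2 and to Ccn2. Igfbp3 and Asap1, which passed with the block but not in the fit of each comparison, were added after their values were seen. Lats2 was also added then, although it was among the 3 largest of the Hippo core. Tead1 and Wwtr1, and the genes given beside the counts of BMP and TGF-beta targets, were named outside that rule. Members and lists were chosen with earlier results of these data known. The fit was tested on simulated data, and 18 alternatives were run. Plots used Python 3.11.15 and matplotlib 3.10.9.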

Additional observations from a re-analysis of the deposited data

Results flagged for a closer look

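In 4 of 54 groups of 4 cultures, 1 culture lay farther from the others, as gap over range, than Dixon's 95% critical value for 4 samples. Chance gives this in about 1 in 20 groups, and the groups share cultures. Ankrd1 had a gap of 0.934 of the range of its log2 ratio against wt, because culture 2 was at -0.41 and the other cultures between 0.19 and 0.23. Id1 had gaps of 0.847 and 0.907 in its siFoxE1 level on the arrays against wt and against siScramble, where siFoxE1 culture 1 was at 10.25 and 10.29 and the other cultures at 11.69 or above. Both come from the same extract. The level of Id2 in wt cells had a gap of 0.958, with wt culture 4 at 8.63 and the other cultures between 9.15 and 9.17. The Id2 ratio of that culture, 0.55, was the highest against wt.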

How the results depend on the processing

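Over the 18 alternatives Ccn2 ran from -0.67 to -0.57 against siScramble and from -0.83 to -0.68 against wt, and Id2 from 0.30 to 0.36 and from 0.35 to 0.43, so direction held in all of them, as it did for Id1 and Id4. Their calls did not. Without the dye term 3 members passed against siScramble (Id1, Id2 and Ccn2) and 2 against wt (Id2 and Ccn2), beside 689 and 844 of all probes in place of 22 and 9. From the 4 individual arrays alone 2 passed against siScramble (Id2 and Ccn2), beside 527 of all probes. In 1 fit of all 10 arrays 3 passed against wt (Id2, Id4 and Ccn2), beside 1659 of all probes, and with the replicate block 4, beside 1454, while 0 passed in the fit of each comparison. The replicate block changed no other call of a member. Leaving out each replicate in turn gave counts of 0 to 0. Feature Extraction processed signals left 0 probes past the threshold in either comparison in limma (1853 and 2739 at an unadjusted p under 0.05). The cause of these shifts was not tested. Id2 and Ccn2 were named with their directions when the genes were chosen, so nothing is read from how often they passed. Mean spot signals were not run, since the columns used here are medians.

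Directions turned only for members close to 0. Against wt, Id3 was 0.094 without the dye term and 0.20 in the individual arrays. Ccn1 against wt was 0.070, 0.13, 0.035 and 0.035 without the dye term, in the individual arrays, in 1 fit and with the replicate block, and it ranged from -0.13 to 0.074 over the replicates left out. Tgfb1 against wt was -0.018 in the individual arrays. For siScramble over wt, Tgfb1 was 0.0094 with processed signals and 0.0090 with loess only or Aquantile. With 1 replicate left out the value ranged from -0.037 to 0.024 for Tgfb1, from -0.13 to 0.032 for Ankrd1, from -0.018 to 0.14 for Id1, from -0.032 to 0.21 for Smad7 and from -0.0061 to 0.085 for Id2. Slide 2 held culture 3 and the pool of the siScramble comparison. Ccn2 was -0.56 on slide 1 (mean of 3 cultures) and -0.97 and -0.57 on slide 2, and Id2 was 0.35 beside 0.27 and 0.31. The number of arrays, with 4 cultures per condition, limits the precision.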

Other observations

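The pooled arrays were not always between the single arrays of their comparison, and the labels do not say which replicates a pool holds. In the fit of each comparison with its dye term, each pool carries as much weight in a fitted value as the 4 single arrays together. For Id4 the mean log2 intensity of both channels was 10.33 on the pool against wt and 10.47 on the pool against siScramble, while the highest single arrays were at 9.80 and 9.71. The pool was above all 4 single arrays by 0.53 or more in both comparisons for 0.484% of 17774 probes, and by any amount for 10.4%. Id2 was the other member with both pools above all single arrays, by 0.03 and 0.04. What sets these levels was not tested. The Id4 ratio was also higher in both pools than in any culture, so the fitted Id4 value rests on the pools more than that of Id2 or Ccn2 does.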
